A study of Mus musculus with 8 samples.

Results

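The mitochondrial ribosomal proteins are the products of nuclear genes named Mrpl, for the large subunit, and Mrps, for the small subunit. The 78 genes described here are all rows of the deposited count table whose symbol starts with Mrpl or Mrps followed by a digit, without pseudogene rows marked -ps, out of 24976 genes in all. Of these, 49 are Mrpl genes and 29 are Mrps genes. All 78 had counts in each of the 8 libraries and all 78 passed the filter on low counts, which kept 13073 genes. These genes encode subunits of the ribosome inside mitochondria, which translates the few proteins encoded by mitochondrial DNA, all of them parts of the respiratory chain and ATP synthase. The proteins are made in the cytosol and imported. Some have relatives in the bacterial ribosome and others are found only in mitochondria. In T cells, mitochondrial translation is known to be needed for proliferation and for cytokine production after activation.

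Bulk RNA was sequenced from CD3e+CD8+ T cells sorted out of tumours of B16-OVA, mouse melanoma cells carrying ovalbumin as an antigen. The hosts were Rag2-/- mice, which lack mature lymphocytes; tumour cells were given 10 days before the transfer of CD8 T cells, and cells were sorted 10 days after it. The 4 groups of 2 libraries each, with the cells of one host mouse per sample, were dKO PD1+Tim3+, WT PD1+Tim3+, dKO PD1+Tim3- and WT PD1+Tim3-. The donors labelled dKO carried OT-I, a transgenic receptor for ovalbumin, and Cd8Cre, which cuts in CD8 T cells, with Nr4a1 and Nr4a2 both floxed. OT-I is not mentioned for WT donors, so genotype and receptor cannot be told apart if they lacked it. PD1 and Tim3 are inhibitory receptors, and the PD1+Tim3+ gate is commonly used for terminally exhausted cells.

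Total counts ran from 1944999 to 13418762 per library, of which the 78 genes took 8734 to 53193 counts. Nr4a1 did not fall in the libraries labelled dKO, where it stood at 1175 to 1489 CPM, against 789 to 979 CPM in WT libraries. Nr4a2 stood at 929 to 984 CPM in libraries labelled dKO and 958 to 1034 CPM in WT libraries. Counts per gene cannot show the loss of floxed exons alone, so the genotype is given throughout as a label. CPM here are counts scaled to library size after TMM normalization. Havcr2, which encodes Tim3, stood at 41.8 to 58.2 CPM in PD1+Tim3+ libraries and 2.28 to 3.62 CPM in PD1+Tim3- libraries, and the 6 T cell markers in the table summed to 3181 to 4179 CPM. All 5 erythroid markers were detected, and summed to 33.3 to 109 CPM in libraries labelled dKO PD1+Tim3+, 6.21 to 33.7 in WT PD1+Tim3+, 3.67 to 3.80 in those labelled dKO PD1+Tim3- and 3.52 to 7.82 in WT PD1+Tim3-. Ribosomal RNA genes took 6.52 to 8.36% of counts in PD1+Tim3+ libraries and 1.60 to 2.37% in PD1+Tim3- libraries. Ribosomal RNA separated the populations in both genotypes, the erythroid sum only among libraries labelled dKO, and their part in the results was not tested. In bulk RNA, fewer cells expressing a gene and less RNA per cell cannot be told apart.

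Levels differed widely between the 78 genes, while most genes varied by less than 2-fold between libraries. The median gene had 26.9 CPM per kilobase of transcript over the 8 libraries, and the median ratio of a gene's highest to its lowest library was 1.51. The ratio was 2 or more in 9 of the 78, and its value over all tested genes is not given here. The order of levels per kilobase was close to the same in every group, with Spearman's rho across the 78 genes of 0.970 to 0.987 between pairs of groups, a description over genes that share their libraries. Mrpl46 at 735 and Mrpl27 at 608 CPM per kilobase stood far above the rest. Next came Mrpl20 at 179, Mrpl30 at 161, Mrpl52 at 99.9 and Mrpl23 at 93.5, all large-subunit proteins. The lowest were Mrpl47 at 2.27, Mrpl1 at 4.57, Mrps5 at 5.07, Mrps25 at 5.35, Mrpl19 at 6.17 and Mrpl35 at 6.54 CPM per kilobase. Across the 76 genes other than Mrpl46 and Mrpl27, log2 CPM did not rise with log2 transcript length (Pearson r = -0.11), and the order per kilobase favours short transcripts if reads were taken from one transcript end, since the library type was not stated.

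**Figure D1:**
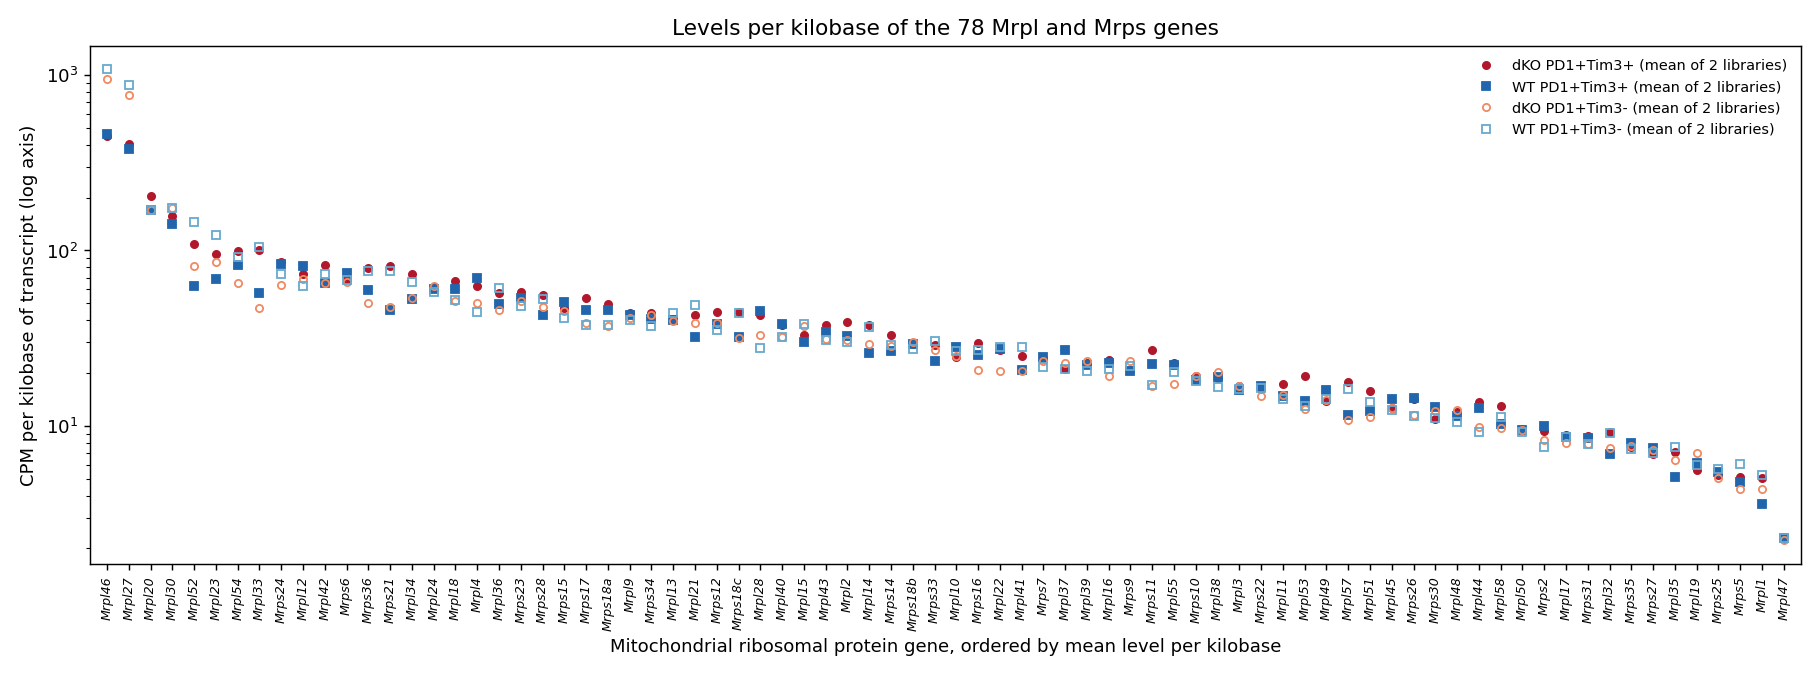
Levels of the 78 genes in CPM per kilobase of transcript, on a log axis, ordered by their mean over the 8 libraries; each point is the mean of the 2 libraries of a group. Mrpl46 and Mrpl27 stand apart at 735 and 608 CPM per kilobase, ahead of Mrpl20 at 179, and their PD1+Tim3+ points lie below their PD1+Tim3- points.

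Mrpl46, a mitochondria-specific protein of the large subunit, and Mrpl27, a relative of the bacterial protein that reaches towards the peptidyl transferase centre, had the largest falls of all members in PD1+Tim3+ cells labelled dKO and were among the 3 largest in WT cells. In the mm10 annotation of GENCODE vM21, Mrpl46 lies at chr7:78775236-78783531 (-) and Mrpl27 at chr11:94653767-94660089 (+). Mrpl46 stood at 412 and 614 CPM in libraries labelled dKO PD1+Tim3+, 492 and 557 in WT PD1+Tim3+, 934 and 1219 in those labelled dKO PD1+Tim3- and 1610 and 831 CPM in WT PD1+Tim3-. Mrpl27 stood at 251 and 359 CPM in libraries labelled dKO PD1+Tim3+, 269.7 and 305 in WT PD1+Tim3+, 521 and 646 in those labelled dKO PD1+Tim3- and 862 and 464 CPM in WT PD1+Tim3-. For both genes all 4 PD1+Tim3+ libraries lay below all 4 PD1+Tim3- libraries, and replicate 1 of WT PD1+Tim3- was the highest. By edgeR's quasi-likelihood test with Benjamini-Hochberg adjustment over all tested genes, Mrpl46 fell by 1.22 ± 0.28 (SE) on the log2 scale between populations in WT (adjusted p = 0.0123) and by 1.07 ± 0.28 in cells labelled dKO (adjusted p = 0.0361). Mrpl27 fell by 1.21 ± 0.26 in WT (adjusted p = 0.00973) and by 0.93 ± 0.26 in cells labelled dKO (adjusted p = 0.0444). Without replicate 1 of WT PD1+Tim3-, the WT differences were -0.65 for Mrpl46 (adjusted p = 0.119) and -0.68 for Mrpl27 (adjusted p = 0.0847), neither past the threshold of 0.05. Both WT calls were also lost without either WT PD1+Tim3+ library.

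The level of these 2 genes went with that of many others, among them genes known from muscle and sperm. The ratio of Mrpl46 to Mrpl27 stayed between 1.64 and 1.89 in all 8 libraries, and their log2 CPM correlated at r = 0.997 over the 8 libraries. In all, 280 of the 13073 tested genes, Mrpl46 itself included, correlated with it at r of 0.98 or more, and Mrpl27 was the one other member among them. These 280 genes took 4.28 to 6.05% of the counts in PD1+Tim3+ libraries and 8.54 to 14.4% in PD1+Tim3- libraries. Among them were Csrp3, a muscle LIM protein, at 735 to 1106 CPM in PD1+Tim3+ libraries and 1502 to 2934 CPM in PD1+Tim3- libraries, and Tnp2, a sperm chromatin protein, at 509 to 763 and 1050 to 2087 CPM in the same order of populations. Csrp3, Tnp2 and Kif18a were picked for display after their values were seen, each with r over 0.99 to Mrpl46. The correlations are descriptions over 8 libraries that share sequencing depth and scaling, and what the 280 genes have in common was not tested. Counts per gene do not show whether the reads came from these genes' own transcripts, so the levels and falls of Mrpl46 and Mrpl27 are those of their counts. Eme1, whose exons overlap those of Mrpl27, stood at 1.14 to 4.08 CPM.

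**Figure D2:**
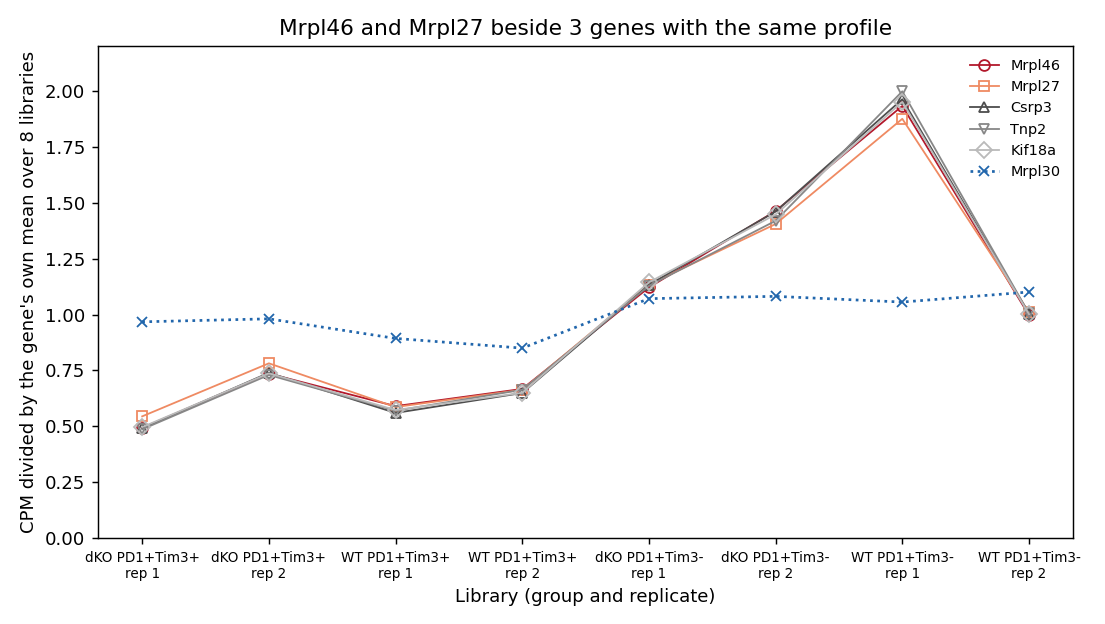
CPM of Mrpl46, Mrpl27, Csrp3, Tnp2, Kif18a and Mrpl30 in each of the 8 libraries, divided by each gene's own mean over the libraries. The lines of the first 5 genes lie almost on each other, below 1 in the 4 PD1+Tim3+ libraries and at 1.87 to 2.00 in replicate 1 of WT PD1+Tim3-, while Mrpl30, the member next in level after Mrpl20, stays close to 1.

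Because of their level, these 2 genes weighed heavily in the summed level of the family. They took 17.1 to 23.5% of the family's counts in PD1+Tim3+ libraries and 29.9 to 46.1% in PD1+Tim3- libraries. The sum over all 78 genes was 4008 ± 185 CPM in libraries labelled dKO PD1+Tim3+, 3712 ± 122 in WT PD1+Tim3+, 4428 ± 221 in those labelled dKO PD1+Tim3- and 4848 ± 724 CPM in WT PD1+Tim3- (SD, n = 2 each). Over the other 76 genes the sums were 3190 ± 35.2, 2900.4 ± 51.5, 2768 ± 68.7 and 2965 ± 109 CPM in the same order of groups. Over these 76 genes the sum was higher in PD1+Tim3+ than in PD1+Tim3- libraries among those labelled dKO, while in WT the populations differed by less than the spread of the WT PD1+Tim3- libraries.

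Between populations in WT cells, where the question is how terminally exhausted cells differ from less differentiated ones, 12 of the 78 genes passed the test, 2 higher and 10 lower in PD1+Tim3+ cells. Of all tested genes, 17% passed this test, 8.25% higher and 8.76% lower. The 2 that rose were Mrpl28 and Mrpl4, and the falls were led by Mrpl52, Mrpl46, Mrpl27, Mrpl33 and Mrpl23. The median log2 difference of the 78 genes was 0.05, against 0.01 over all tested genes. Over the fits that each left out a library, this median ran from -0.010 to 0.078, and every one of the calls was lost in some fit. In these fits the remaining library of a group is assumed to vary like the other groups.

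Mrpl28 (chr17:26123500-26126613, +), a relative of a bacterial large-subunit protein, stood at 46.9 and 42.9 CPM in libraries labelled dKO PD1+Tim3+, 47.1 and 47.3 in WT PD1+Tim3+, 31.1 and 37.8 in those labelled dKO PD1+Tim3- and 26.9 and 31.3 CPM in WT PD1+Tim3-. It rose by 0.71 ± 0.12 (SE) on the log2 scale in WT cells (edgeR adjusted p = 0.00450). Mrpl4, whose bacterial relative lines the tunnel through which the new protein leaves the ribosome, stood at 89.2 and 71.3 CPM in libraries labelled dKO PD1+Tim3+, 82.6 and 95.9 in WT PD1+Tim3+, 60.8 and 68.2 in those labelled dKO PD1+Tim3- and 52.2 and 63.2 CPM in WT PD1+Tim3-. It rose by 0.64 ± 0.14 in WT cells (edgeR adjusted p = 0.0108). For both genes every PD1+Tim3+ library lay above every PD1+Tim3- library, although neither passed the test in cells labelled dKO.

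Mrpl52 (chr14:54426909-54429756, +), a mitochondria-specific large-subunit protein, had a different pattern. It stood at 32.2 and 64.1 CPM in libraries labelled dKO PD1+Tim3+, 27.5 and 27.6 in WT PD1+Tim3+, 42.5 and 29.4 in those labelled dKO PD1+Tim3- and 69.2 and 59.5 CPM in WT PD1+Tim3-. The WT libraries were separated by population and those labelled dKO overlapped. It fell by 1.23 ± 0.25 (SE) on the log2 scale in WT PD1+Tim3+ cells (edgeR adjusted p = 0.00753). Mrpl23, whose bacterial relative sits at the exit of the protein tunnel, stood at 58.1 and 74.4 CPM in libraries labelled dKO PD1+Tim3+, 46.8 and 48.6 in WT PD1+Tim3+, 69.0 and 50.4 in those labelled dKO PD1+Tim3- and 83.2 and 87.3 CPM in WT PD1+Tim3-. It fell by 0.83 ± 0.15 in WT PD1+Tim3+ cells (edgeR adjusted p = 0.00450), again with no separation of the libraries labelled dKO.

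Mrps21 (chr3:95862634-95871519, -), a relative of a bacterial small-subunit protein, was the single small-subunit gene called in WT cells. It stood at 27.4 and 45.1 CPM in libraries labelled dKO PD1+Tim3+, 19.0 and 21.6 in WT PD1+Tim3+, 23.3 and 19.4 in those labelled dKO PD1+Tim3- and 34.7 and 33.2 CPM in WT PD1+Tim3-. Both WT PD1+Tim3+ libraries lay below both WT PD1+Tim3- libraries, and the difference was -0.73 ± 0.20 (edgeR adjusted p = 0.0274). The other genes that fell in WT PD1+Tim3+ cells were Mrpl35, Mrpl21, Mrpl1 and Mrpl15, relatives of bacterial large-subunit proteins, with log2 differences of -0.58, -0.58, -0.53 and -0.35 and edgeR adjusted p of 0.0127, 0.0261, 0.0262 and 0.0414. Reads of Mrpl21 cannot be told apart from those of Ighmbp2 where their exons overlap, since the strand setting of the counting was not stated. Exons of 26 of the 78 genes overlap another annotated gene.

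Between populations in cells labelled dKO, 6 genes passed the test, 4 higher and 2 lower in PD1+Tim3+ cells. Of all tested genes, 9.93% passed, 5.21% higher and 4.72% lower. The 4 that rose were Mrpl33, Mrpl57, Mrps36 and Mrpl18, and the 2 that fell were Mrpl46 and Mrpl27. The 78 genes had a median log2 difference of 0.19, against 0.01 over all tested genes, and 58 of the 78 were positive. No call was left without either library labelled dKO PD1+Tim3- or without either WT PD1+Tim3+ library, and the 6 genes kept their sign in all of these fits. The median was 0.11 without dKO-labelled PD1+Tim3+ replicate 1.

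Mrpl33 (chr5:31596935-31664384, +), a small relative of a bacterial large-subunit protein, was called in both genotypes with opposite signs. It stood at 34.8 and 61.7 CPM in libraries labelled dKO PD1+Tim3+, 29.1 and 25.5 in WT PD1+Tim3+, 26.4 and 18.4 in those labelled dKO PD1+Tim3- and 54.3 and 45.2 CPM in WT PD1+Tim3-. Libraries labelled dKO were higher in PD1+Tim3+ cells, WT libraries were lower there, and neither pair overlapped. The log2 difference was 1.03 ± 0.26 (SE) in cells labelled dKO (edgeR adjusted p = 0.0333) and -0.89 ± 0.23 in WT (edgeR adjusted p = 0.0210). Without dKO-labelled PD1+Tim3+ replicate 2, the difference in cells labelled dKO was 0.55 (edgeR adjusted p = 0.114).

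Mrpl57, a mitochondria-specific large-subunit protein, stood at 43.4 and 58.9 CPM in libraries labelled dKO PD1+Tim3+, 30.8 and 35.6 in WT PD1+Tim3+, 36.2 and 26.2 in those labelled dKO PD1+Tim3- and 43.5 and 49.3 CPM in WT PD1+Tim3-. Mrps36, now known as a subunit of the 2-oxoglutarate dehydrogenase complex and no longer counted as a ribosomal protein, stood at 43.9 and 56.9 CPM in libraries labelled dKO PD1+Tim3+, 35.9 and 40.0 in WT PD1+Tim3+, 37.3 and 26.8 in those labelled dKO PD1+Tim3- and 47.6 and 48.9 CPM in WT PD1+Tim3-. In both genes the pattern over the 4 groups had the same form as in Mrpl33. Their log2 differences in cells labelled dKO were 0.65 ± 0.18 and 0.59 ± 0.17 (edgeR adjusted p = 0.0491 and 0.0498). Without dKO-labelled PD1+Tim3+ replicate 2 they were 0.41 and 0.39, and no longer called, and Mrps36 was at 0.92 without replicate 1 of those labelled dKO PD1+Tim3-. Mrpl18, a relative of the bacterial protein that binds 5S ribosomal RNA, stood at 82.1 and 80.7 CPM in libraries labelled dKO PD1+Tim3+, 72.4 and 74.3 in WT PD1+Tim3+, 59.5 and 66.7 in those labelled dKO PD1+Tim3- and 63.7 and 63.8 CPM in WT PD1+Tim3-. All PD1+Tim3+ libraries lay above all PD1+Tim3- libraries. It rose by 0.38 ± 0.11 in cells labelled dKO (edgeR adjusted p = 0.0444) and was called in none of the 8 fits that left out a library. Its exons overlap those of Tcp1.

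**Figure D3:**
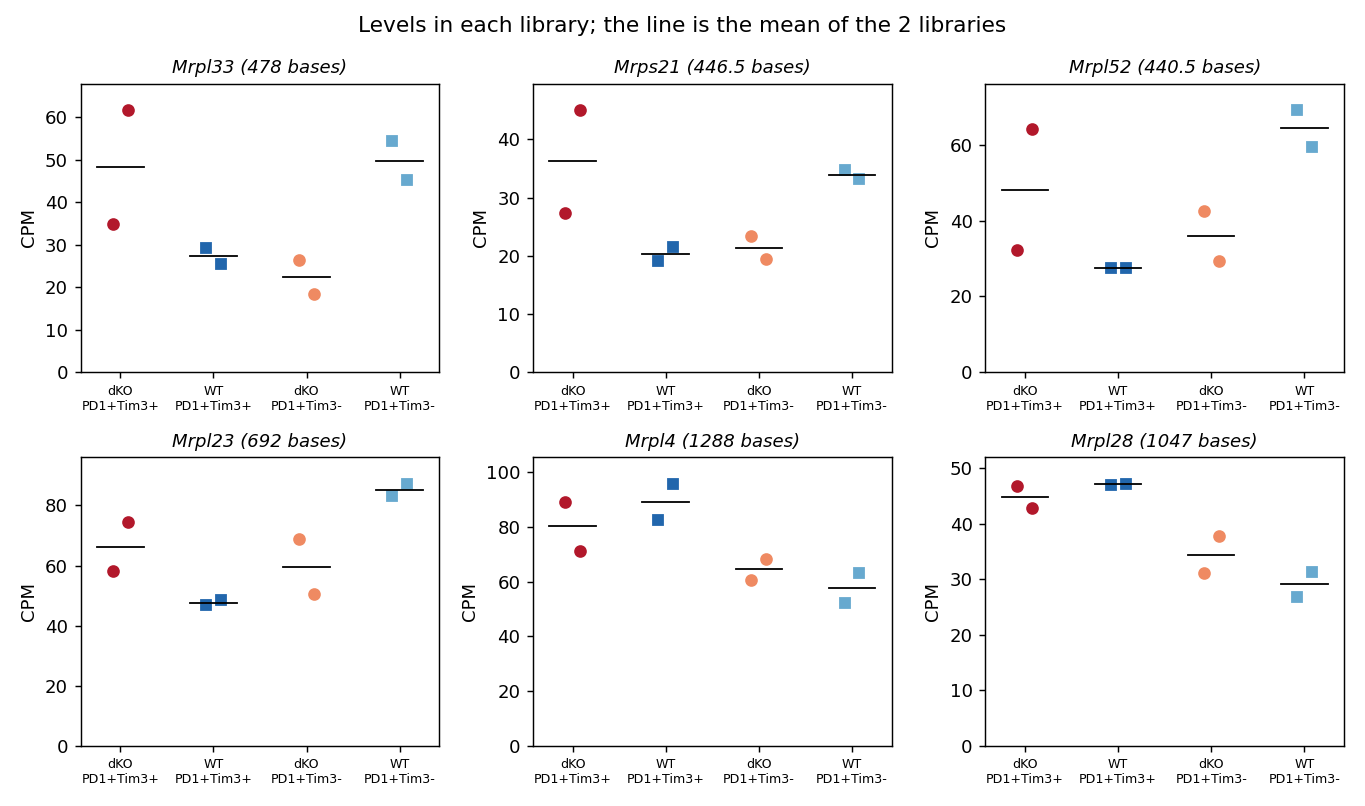
CPM of 6 members in each library by group, with a line at the mean of the 2 libraries and the transcript length in bases in each title; axes start at 0. Mrpl33, Mrps21, Mrpl52 and Mrpl23 are higher in WT PD1+Tim3- than in WT PD1+Tim3+ and not so among libraries labelled dKO, while Mrpl4 and Mrpl28 are higher in all 4 PD1+Tim3+ libraries.

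Seen over all libraries, 9 of the 78 genes (11.5%) were higher in all 4 PD1+Tim3+ libraries than in all 4 PD1+Tim3- libraries, against 12.3% of tested genes. A further 4 genes (5.13%) were lower in all 4, against 10.6% of tested genes, and 65 overlapped. By sign alone, 30 genes were higher in PD1+Tim3+ cells of both genotypes, 5 lower in both, 28 lower in WT and higher in cells labelled dKO, and 15 the reverse. The population differences in WT and in cells labelled dKO share no library.

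**Figure D4:**
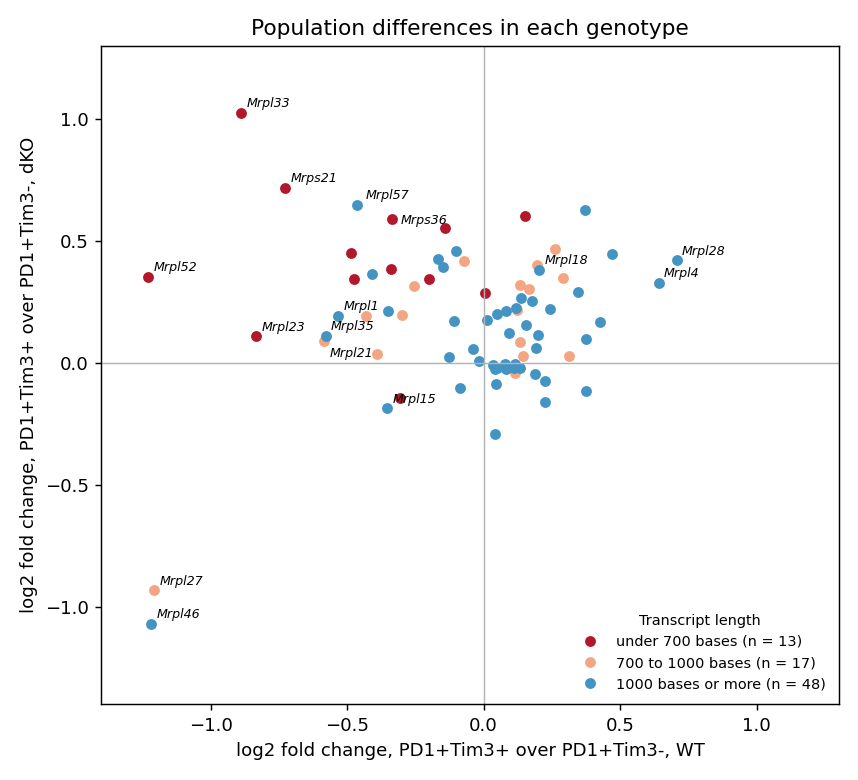
Log2 fold change of PD1+Tim3+ over PD1+Tim3- for each of the 78 genes, in WT on the horizontal axis and in libraries labelled dKO on the vertical axis, coloured by transcript length; the 15 genes called in either genotype are named. Mrpl46 and Mrpl27 are low on both axes, and 10 of the 13 genes with transcripts under 700 bases lie in the upper left part, lower in WT and higher in cells labelled dKO.

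The interaction, which asks whether the population difference itself differs between genotypes, called none of the 78 genes, and 0% of all tested genes passed it. At an unadjusted p under 0.05 it held 20 of the 78 genes, all with a positive value (25.6%), against 10.1% of all tested genes, 5.87% positive and 4.22% negative. The smallest adjusted p of edgeR was 0.200. Mrpl33 had the largest value, 1.91 ± 0.34 (SE) on the log2 scale, ahead of Mrpl52 at 1.58 ± 0.37, Mrps21 at 1.44 ± 0.30, Mrpl57 at 1.11 ± 0.25, Mrpl23 at 0.94 ± 0.21 and Mrps36 at 0.93 ± 0.23. The difference in response that Mrpl33 showed by sign in the 2 genotypes was thus not called. Of the other tools, DESeq2 called 3 genes, Mrpl33, Mrpl52 and Mrps21, and limma-voom called 0. The share of all tested genes that DESeq2 called is not given here, so its 3 calls are not read as a result about the family. Over the edgeR fits that each left out a library, the value of Mrpl33 ran from 1.44 to 2.29. That of Mrpl52 ran from 1.00 to 1.99 and that of Mrps21 from 1.04 to 1.75.

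Between genotypes, the libraries labelled dKO did not differ from WT in any of the 78 genes at adjusted p under 0.05 in either population. Of tested genes, 0.627% passed among PD1+Tim3+ cells, 0.26% higher and 0.367% lower, and 0.0459% among PD1+Tim3- cells, 0.0153% higher and 0.0306% lower. DESeq2 and limma-voom called 0 members in both populations. In PD1+Tim3+ cells 19 members had an unadjusted p under 0.05 by edgeR, 18 of them higher in libraries labelled dKO, which is 24.4% of members against 1570 of the 13073 tested genes, 7.10% higher and 4.91% lower. The median log2 difference was 0.08, against 0.01 over all tested genes. The smallest p belonged to Mrps21, with 0.82 ± 0.20 (SE, adjusted p = 0.125), then Mrpl34 with 0.47, Mrpl57 with 0.61, Mrpl33 with 0.84, Mrpl35 with 0.47 and Mrpl14 with 0.52. The median was 0.044 without dKO-labelled PD1+Tim3+ replicate 1. The median became 0.16 when the other library of that group was left out and 0.15 when WT PD1+Tim3+ replicate 2 was.

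In PD1+Tim3- cells 8 members (10.3%) had an unadjusted p under 0.05, all lower in libraries labelled dKO, a share near the 8.27% of all tested genes, 523 higher and 558 lower. The median log2 difference was -0.03. Mrpl33 came first with -1.08 ± 0.26 (SE, edgeR adjusted p = 0.245), followed by Mrps36 with -0.53, Mrpl23 with -0.47, Mrpl52 with -0.78, Mrps5 with -0.46 and Mrps21 with -0.63. Mrpl33 was called when either library labelled dKO PD1+Tim3+ was left out of the shared fit. The contrasts between genotypes and those between populations share libraries pairwise, so the values of Mrpl33, Mrps21 and Mrpl52 in them are not independent of each other.

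Apart from Mrpl46 and Mrpl27, several of the genes with the largest differences had short transcripts, but calls were not confined to these. Between populations in WT, 4 of 13 members under 700 bases, 2 of 17 of 700 to 1000 and 6 of 48 of 1000 bases or more were called. In cells labelled dKO the calls were 2, 1 and 3 in the same order. Of all tested genes, 17% and 9.93% were called in WT and in cells labelled dKO. Both members that rose in WT, Mrpl28 and Mrpl4, were in the longest class. Transcript length was taken as the median exonic length of a gene's coding transcripts in GENCODE vM21, and ran from 440.5 to 6073 bases over the 78 genes with a median of 1224.5, against 2576 over the 12199 tested genes with a length. Under 1000 bases lay 30 of the 78 genes (38.5%) and 10.9% of tested genes. Mrpl52 at 440.5, Mrps21 at 446.5, Mrpl33 at 478, Mrps36 at 636 and Mrpl23 at 692 bases were among the 13 members under 700 bases, while Mrpl57 at 2877 bases was not, though its coding part is 306 bases long.

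In the 13 members under 700 bases the direction was nearly uniform, and most other genes as short shared it in each contrast. In cells labelled dKO against WT, all 13 were higher in PD1+Tim3+ libraries, with a median log2 difference of 0.47, and all 13 were lower in PD1+Tim3- libraries, with a median of -0.44. Between populations, 2 of 13 were higher in PD1+Tim3+ cells in WT, with a median of -0.34, and 12 of 13 in cells labelled dKO, with a median of 0.38. The interaction was positive in all 13, with a median of 0.82, and 10 of the 20 members at an unadjusted p under 0.05 were of this length. These contrasts share libraries, so the 4 patterns are one arrangement of the 4 groups seen from several sides.

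Other genes with transcripts as short went the same way by less or by as much. Over 538 tested genes under 700 bases, without the cytosolic ribosomal protein genes, the medians were 0.30 and -0.21 for libraries labelled dKO against WT in PD1+Tim3+ and PD1+Tim3- cells. For the populations they were -0.36 in WT and 0.19 in cells labelled dKO, and 0.51 for the interaction. In the same order, 76.2%, 23.8%, 28.6%, 64.5% and 79.0% of these 538 genes were positive. Of the 48 members of 1000 bases or more, 7 had an unadjusted p under 0.05 in the interaction. For members of 1000 to 1500 bases the interaction median was -0.02, against -0.04 in 1415 other genes of that length. Differences between members and other genes of the same length were not tested.

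Single libraries carried part of this arrangement. Measured as the median over the 13 genes of log2 CPM minus each gene's mean over the 8 libraries, the values were 0.03 and 0.42 in libraries labelled dKO PD1+Tim3+, -0.20 and -0.25 in WT PD1+Tim3+, -0.13 and -0.33 in those labelled dKO PD1+Tim3- and 0.20 and 0.20 in WT PD1+Tim3-. dKO-labelled PD1+Tim3+ replicate 2 stood highest, and its fellow library lay near 0. Without replicate 2 the median difference of the 13 genes between libraries labelled dKO and WT in PD1+Tim3+ cells was 0.30, still with all 13 higher. Between populations in cells labelled dKO it was 0.31 without replicate 2, 0.59 without replicate 1, and 0.65 without dKO-labelled PD1+Tim3- replicate 1.

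**Figure D5:**
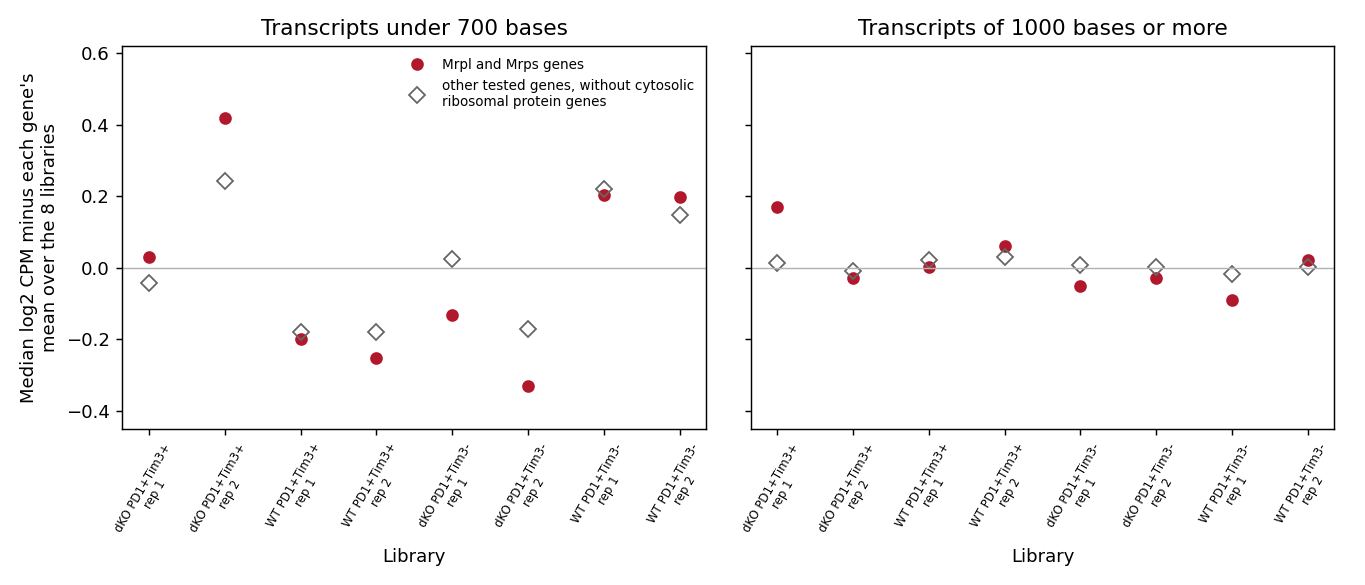
Median over genes of log2 CPM minus each gene's mean over the 8 libraries, per library, for the members (filled) and for other tested genes without cytosolic ribosomal protein genes (open), with transcripts under 700 bases on the left and of 1000 bases or more on the right. Among short transcripts, members run from -0.33 to 0.42 and other genes from -0.18 to 0.24, both highest in dKO-labelled PD1+Tim3+ replicate 2 and of opposite sign in replicate 1 of each dKO-labelled group; among long ones the members stay between -0.09 and 0.17.

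Across all 78 genes the log2 difference was related to coding length more than to transcript length. Spearman's rho with transcript length was -0.40 for libraries labelled dKO against WT among PD1+Tim3+ cells and 0.31 among PD1+Tim3- ones. Between populations it was 0.21 in WT and -0.35 in cells labelled dKO, and -0.40 for the interaction. With coding length the values were -0.58, 0.46, 0.38, -0.45 and -0.57 in the same order of contrasts. Over 12121 other tested genes with a length, rho with transcript length was weaker and negative throughout, at -0.10, -0.03, -0.08, -0.13 and -0.03 in that order. All of these are descriptions over genes measured in the same libraries.

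When each library was corrected for a smooth trend of its log ratios on transcript length, the medians of the short members came closer to 0. They were 0.21 and -0.27 for libraries labelled dKO against WT in PD1+Tim3+ and PD1+Tim3- cells, -0.08 and 0.24 between populations in WT and in cells labelled dKO, and 0.42 for the interaction. The WT population difference was called in 10 members, without Mrpl33 and Mrps21 and with Mrpl52 at -0.73 (edgeR adjusted p = 0.0155). In cells labelled dKO 5 members were called, Mrpl33 at 0.87 (edgeR adjusted p = 0.0212), Mrpl57, Mrps21, Mrpl27 and Mrpl46. Each of the 5 medians kept the sign it had without the correction. In the same order of contrasts, 10, 3, 4, 11 and 11 of the 13 short members were positive. Across all members, Spearman's rho with transcript length was weaker than without the correction in each contrast. It was -0.008, 0.09, 0.009, -0.085 and -0.066 in that order. Corrected medians of other genes as short are not given here. Whether the trend was fully removed at the shortest lengths was not tested. The shares of all tested genes called with the correction are not given here.

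The 250 bases before the start of 3 of the short members whose levels moved alike, and of Mrpl28, which rose in WT PD1+Tim3+ cells, are printed to show what their promoters hold. They are from RefSeq on GRCm38.p6, on the strand of the gene, and lie at chr5:31613701-31613950 (+) for Mrpl33, chr3:95871515-95871764 (-) for Mrps21, chr14:54426659-54426908 (+) for Mrpl52 and chr17:26123253-26123502 (+) for Mrpl28. Capitals mark a match to the NRF1 motif in Mrps21 and to the ETS core in Mrpl52, both on the opposite strand; an ETS core of Mrpl33 runs past the printed bases.
Mrpl33: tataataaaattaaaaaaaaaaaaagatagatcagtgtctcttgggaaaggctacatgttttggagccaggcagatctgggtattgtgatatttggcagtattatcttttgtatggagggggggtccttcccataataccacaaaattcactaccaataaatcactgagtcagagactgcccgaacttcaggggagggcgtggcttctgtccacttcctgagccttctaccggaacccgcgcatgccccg
Mrps21: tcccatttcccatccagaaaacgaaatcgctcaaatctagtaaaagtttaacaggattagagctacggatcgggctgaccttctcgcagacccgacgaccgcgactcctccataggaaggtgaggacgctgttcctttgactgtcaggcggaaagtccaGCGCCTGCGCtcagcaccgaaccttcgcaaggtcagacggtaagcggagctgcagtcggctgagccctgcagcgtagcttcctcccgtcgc
Mrpl52: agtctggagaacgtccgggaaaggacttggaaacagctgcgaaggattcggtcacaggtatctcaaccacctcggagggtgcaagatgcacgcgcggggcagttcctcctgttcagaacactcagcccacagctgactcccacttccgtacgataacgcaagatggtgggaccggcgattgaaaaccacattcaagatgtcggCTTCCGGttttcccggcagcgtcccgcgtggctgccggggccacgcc
Mrpl28: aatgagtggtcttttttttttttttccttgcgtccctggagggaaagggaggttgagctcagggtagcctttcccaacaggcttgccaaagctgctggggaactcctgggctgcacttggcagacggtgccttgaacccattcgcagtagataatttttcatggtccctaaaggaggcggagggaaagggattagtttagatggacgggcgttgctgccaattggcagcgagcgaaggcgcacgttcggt

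Promoter windows of 250 bases before to 50 after a start were held by RefSeq for 69 of the 78 genes, 75 windows in all. On both strands they were searched for the ETS core CCGGAAG, the NRF1 motif, the YY1 motif ATGGCGGC, the E-box CACGTG and the TATA box TATAAA. A window was counted once if it held any match. ETS and NRF1 factors are known regulators of nuclear genes for mitochondrial proteins. The ETS core was in 34.7% of members' windows, against 17.6% of windows of tested genes and 8.86% of all windows. The NRF1 motif was in 17.3%, against 9.69% and 4.60%, and the YY1 motif in 12 of the 75, against 4.71% and 2.24%. A match within the 250 bases before the start was held by 18 of the 26 members' windows with the ETS core. For NRF1 it was 10 of 13 windows and for YY1 1 of 12, so nearly all YY1 matches reached past the start. The E-box was in 9.33%, against 9.81% and 7.15%, and the TATA box in 6.67%, against 7.76% and 13.6%. A match is a description of the letters and not of a factor's binding.

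Calls by subunit stand beside the shares of all tested genes called, 17% in WT and 9.93% in cells labelled dKO. Of 51 large-subunit proteins, which are the Mrpl genes with Mrps30 and Mrps18a, 2 rose and 9 fell in WT PD1+Tim3+ cells, and 3 rose and 2 fell in those labelled dKO. Of 26 small-subunit proteins 1 fell in WT and none was called in cells labelled dKO. Among large-subunit proteins with bacterial relatives 2 of 30 rose and 7 fell in WT, and among the mitochondria-specific ones 2 of 21 fell. The difference between the subunits was not tested.

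Of other genes of mitochondrial gene expression, those called are given by list, beside the 17% of all tested genes called between populations in WT and the 9.93% in cells labelled dKO. Mtif3, an initiation factor of mitochondrial translation, stood at 38.2 and 58.4 CPM in libraries labelled dKO PD1+Tim3+, 47.1 and 50.1 in WT PD1+Tim3+, 94.1 and 103 in those labelled dKO PD1+Tim3- and 134 and 87.7 CPM in WT PD1+Tim3-. It was the one gene called among 12 translation factors and fell in both genotypes, by 1.19 ± 0.20 (SE) in WT (edgeR adjusted p = 0.00407) and by 1.02 ± 0.22 in cells labelled dKO (edgeR adjusted p = 0.0184). Mtif3 is among the 280 genes that follow Mrpl46. The 22 tested symbols of ribosome assembly factors include Mrm3 and its older name Rnmtl1. Of these 22, Eral1, a chaperone of the small ribosomal RNA, fell by 1.00 in WT (edgeR adjusted p = 0.00722) and by 1.12 in cells labelled dKO (edgeR adjusted p = 0.0163). Like Mrpl46, Eral1 was highest in replicate 1 of WT PD1+Tim3-, at 50.2 CPM, and lowest in dKO-labelled PD1+Tim3+ replicate 1, at 13.4 CPM. All tested genes, Eral1 included, were correlated with Mrpl46, but the value for Eral1 is not given here. The cause of the likeness was not tested. Ddx28, a helicase of large-subunit assembly, rose by 0.77 in WT (edgeR adjusted p = 0.0467).

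Lars2, the mitochondrial leucyl-tRNA synthetase, was the one gene called in a list of 16 synthetases and 3 subunits of the amidotransferase that corrects glutaminyl-tRNA. It stood at 28.1 and 30.1 CPM in libraries labelled dKO PD1+Tim3+, 45.9 and 44.6 in WT PD1+Tim3+, 53.2 and 57.7 in those labelled dKO PD1+Tim3- and 69.2 and 60.1 CPM in WT PD1+Tim3-. It fell in PD1+Tim3+ cells by 0.52 ± 0.11 (SE) in WT (edgeR adjusted p = 0.00834) and by 0.92 ± 0.12 in those labelled dKO (edgeR adjusted p = 0.00170), and in PD1+Tim3+ cells it fell by 0.63 ± 0.12 in libraries labelled dKO against WT (edgeR adjusted p = 0.0382). A further list of 12 genes held those of mitochondrial transcription, mRNA handling and DNA replication. In it Ssbp1, which binds single-stranded mitochondrial DNA, fell by 0.43 in WT (edgeR adjusted p = 0.0435). Of 5 mitoribosomal proteins with other symbols, Chchd1 fell by 0.51 in WT (edgeR adjusted p = 0.0362). Among the 13 proteins encoded by mitochondrial DNA, the products of this ribosome, MT-Nd3, MT-Nd4l and MT-Nd4, subunits of complex I, fell in WT PD1+Tim3+ cells by 1.51, 0.65 and 0.39 (edgeR adjusted p = 0.0124, 0.0184 and 0.0445). None was called in cells labelled dKO, where MT-Nd3 stood at 90.3 and 230 CPM in PD1+Tim3+ libraries. MT-Nd1, MT-Nd2 and MT-Nd5, of the same complex, differed by 0.01, -0.29 and -0.14 in WT and were not called. Genes of other complexes were not called in WT either. MT-Atp8, MT-Co2, MT-Atp6, MT-Co3, MT-Cytb and MT-Co1 differed there by -0.60, -0.34, -0.31, -0.18, -0.16 and -0.10. In WT 1 of the 13 was positive, with a median of -0.31, while 51.2% of all tested genes were positive. In cells labelled dKO 2 of the 13 were positive, with a median of -0.12. The part of transcript length in these differences was not tested.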

How the data were processed

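Bulk RNA sequencing of sorted CD8 T cells gave 8 libraries, 2 in each of 4 groups taken from the labels. Columns for PD1+Tim3- samples carry only PD1 in their names; they were assigned by elimination. The authors deposited 1 table of raw counts by gene symbol; per the submitters' processing notes, genome build mm10, cutadapt 1.18 and Bowtie2 2.2.5 were used, in roles not given. Counting tool, annotation, strand setting and library type: not given in the sources used here. The 1 line without a gene name holds the column totals and was left out.

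The 78 members and the other gene lists were chosen with earlier results of these data known. The test was edgeR 4.0.16's quasi-likelihood F test (R 4.3.3), with TMM scaling and the default low-count filter, in 1 fit of 4 group means with 4 residual degrees of freedom; p-values were adjusted by Benjamini-Hochberg over all 13073 tested genes and called under 0.05. SE was taken as log2 fold change divided by root F. Log2 CPM used a prior count of 2. Total counts ran from 1944999 to 13418762. The 2 libraries of each group were not duplicates, at a chi-square per gene of 3.10 to 16.1. Per the labels' protocol, sorted cells of each implanted mouse made a sample; with 2 per group, p-values rest on a shared estimate of the spread. The pipeline was tested on simulated data.

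Members named are those called in a contrast, or the 6 with the smallest p where fewer than 6 were called, plus the 6 highest and 6 lowest levels per kilobase; of the other lists, the called genes, at most 4. Alternatives were DESeq2 1.42.0 size factors, no filter, DESeq2, limma-voom (limma 3.58.1), the compared groups alone, offsets for transcript length (lowess span 0.3), replicate number as a block, leaving out each library, and, chosen after seeing the data, leaving out the 280 genes that follow Mrpl46. Transcript lengths are from GENCODE vM21, on the same assembly as mm10, and all 78 members matched. Protein sequences were not used here.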

Additional observations from a re-analysis of the deposited data

How the results depend on the processing

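Of the 36 values of named members, none changed sign in an alternative, but calls were fragile: each of the 18 calls was lost when at least 1 library was left out, and 12 were lost under another alternative. Over the fits that each left out a library, members called ranged from 1 to 19 between populations in WT, 0 to 6 in cells labelled dKO, 0 to 9 for the interaction, and 0 to 6 between genotypes in PD1+Tim3+ cells and 0 to 1 in the other population. The medians of all members ranged over the same fits from -0.010 to 0.078, 0.11 to 0.23, 0.072 to 0.19, 0.044 to 0.16 and -0.05 to -0.02. Without the low-count filter, 10 members were called between populations in cells labelled dKO, against 6, and 7 in the interaction, 4 between genotypes in PD1+Tim3+ cells and 3 in the other population, against 0 in each. DESeq2 called 3 in cells labelled dKO and 3 in the interaction, limma-voom 3 and a fit on the compared groups alone 2 in cells labelled dKO. The cause was not tested. Shares of all tested genes called in the alternatives, fits with a block included, are not given here. The counts therefore show how far calls moved with the settings, and are not a result about the members. With length offsets the median in cells labelled dKO was 0.14, against 0.19. Leaving out the 280 genes that follow Mrpl46 gave 1 call between genotypes in PD1+Tim3+ cells, Mrps21, and 1 in the interaction, Mrpl33; Mrpl46 and Mrpl27 are not in that fit.

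Groups share replicate numbers, but libraries with the same number did not deviate together (r from -0.0585 to -0.0146 over genes), and the labels do not say that a number marks a mouse, so the numbers were not taken as pairs. With the number as a block, 11 members were called between populations in WT and 1 in cells labelled dKO; with genotype and number as a block, 10 and 3. No block gave a call in the interaction, nor the number block between genotypes; the genotype contrasts could not be fitted with genotype and number together. Depth limits counts of the lowest members: Mrpl47 had 382 counts over all libraries.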
